A study of Mus musculus with 3 samples.

Results

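Death-receptor and necroptosis signalling was represented by 10 mouse genes: the receptor Fas, the adaptor Fadd, the protease Casp8 and its regulator Cflar, the ubiquitin ligases Birc2 and Birc3, the kinases Ripk1 and Ripk3, the nucleic acid sensor Zbp1 and the membrane executioner Mlkl. They were taken by gene symbol from a list of names, with no measured value in the rule, and are 10 of 22028 annotated protein-coding genes. All 10 were found, with 56 annotated isoforms between them. The series holds 3 libraries of total RNA, depleted of ribosomal RNA, that was bound to chromatin in primary macrophages grown from the bone marrow of C57BL/6J mice. The cells received Lipid A, the part of lipopolysaccharide that Toll-like receptor 4 recognises, at 100 ng/ml for 12 h, were then kept without it for 12 h after washing, and received it again at 100 ng/ml for 120 min. The 3 libraries share this 1 condition, so the values are levels after the repeated exposure and not responses to it; untreated or once-exposed cells were not analysed here. Age and sex of the animals are recorded as not collected, and 1 donor entry covers all libraries. The labels do not tie the biological replicates to separate animals, so the SD values measure the spread between these libraries, which may be technical. In bulk RNA, fewer cells that express a gene and less RNA per cell cannot be told apart.

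Replicates 1, 2 and 3 held 10293545, 17820066 and 17548564 expected counts, from RNA inputs of 1 µg, 250 ng and 500 ng. The 10 genes together held 23329, 31495 and 29923 of them. Replicate 1 stood apart: the biological coefficient of variation over 17110 genes was 29.8%, and 16.4% over 16238 genes with replicates 2 and 3 alone. Adgre1, which encodes the macrophage surface protein F4/80, was at a mean of 708 TPM (a relative abundance scaled for transcript length and library total), and 7 of 7 macrophage markers were expressed, meaning at least 1 TPM in every library. Of 23 markers of neutrophils, lymphocytes, erythroid cells, fibroblasts and endothelium, 5 were expressed, the highest being the endothelial receptor gene Kdr at 7.39 TPM. Elane, Cd3e, Hba-a1 and Hbb-bs were at 0 in all 3 libraries. Protein-coding genes held 29.4% ± 3.2 (SD, n = 3) of all TPM in these chromatin libraries, which lowers each TPM against a scale of protein-coding genes alone; the median expressed protein-coding gene was at 9.95, 13.9 and 12.1 TPM.

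Engaged death receptors recruit FADD through death domains, and FADD gathers caspase-8, which cleaves and activates executioner caspases in apoptosis. The long product of Cflar, c-FLIP long, pairs with caspase-8 and limits this activity, while the pair still cuts RIPK1 and RIPK3. When caspase-8 is held inactive, RIPK1, or ZBP1 after it binds Z-form nucleic acid, engages RIPK3 through a short homotypic motif, RIPK3 phosphorylates MLKL, and MLKL permeabilises the plasma membrane in the lytic death called necroptosis. The ligases encoded by Birc2 and Birc3 (cIAP1 and cIAP2) attach ubiquitin to RIPK1 at the TNF receptor and keep it in a survival complex. Macrophages are known to make Cflar and Birc3 as NF-kappaB targets, and Zbp1 as an interferon-stimulated gene.

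Sequences are printed for 2 places, in Zbp1 and Cflar, where a transcript either splices or runs on into the intron. The isoform values given below are estimates over whole transcripts, and reads at these places were not counted here. The first is the end of an internal exon of Zbp1 on chromosome 2, minus strand of mm10, where the spliced form Zbp1-201 and the intron-retaining form Zbp1-203 share 24 bases ending at position 173212099. Capitals mark the next exon in Zbp1-201 and the first bases of the intron in Zbp1-203, which begin with the GT of a splice donor.
Zbp1-201: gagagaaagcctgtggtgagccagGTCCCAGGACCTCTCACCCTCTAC
Zbp1-203: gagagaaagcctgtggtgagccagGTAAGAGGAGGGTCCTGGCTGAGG
The other is on chromosome 1, plus strand, where the long Cflar-205 and the short Cflar-204 have the same bases up to position 58732326, after 204 shared codons. Capitals mark the bases after the last shared one. In Cflar-204 they are intron bases of Cflar-205, again opening with a donor GT, and they add 33 coding bases before the TGA stop that closes the line.
Cflar-204: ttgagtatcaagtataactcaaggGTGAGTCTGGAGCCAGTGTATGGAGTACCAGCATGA
Cflar-205: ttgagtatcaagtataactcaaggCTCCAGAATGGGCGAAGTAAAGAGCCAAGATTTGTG

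All 10 genes were expressed, against 42% of annotated protein-coding genes. Cflar, Birc3, Zbp1, Birc2, Mlkl, Ripk1 and Casp8, 7 of the 10, exceeded the median expressed gene of the protein-coding class in all 3 libraries, against 18.5% of annotated protein-coding genes. Fas, Ripk3 and Fadd were not. On the log2(TPM + 0.1) scale the median member lay 1.77, 1.56 and 1.77 above the median expressed gene in replicates 1, 2 and 3, a mean of 1.70 ± 0.12 (SD, n = 3) or 3.25-fold. Levels spanned 244-fold from Cflar to Fadd, and Cflar, Birc3 and Zbp1 held 77.9% of the summed TPM of the 10 genes.

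**Figure D1:**
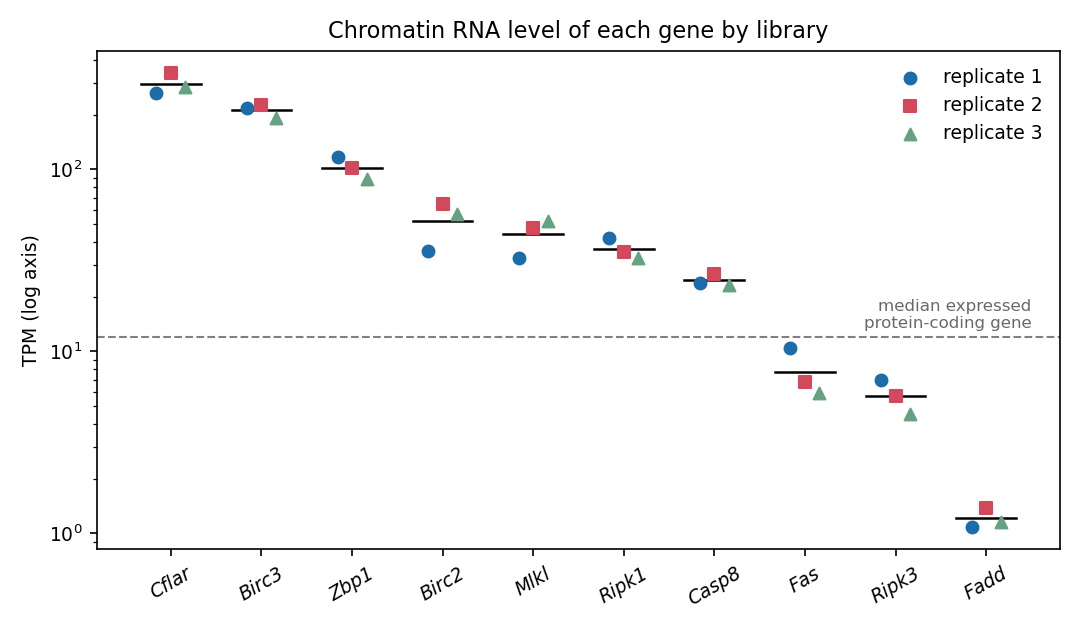
TPM of each of the 10 genes on a log axis, 1 point per library, with the mean over 3 libraries as a bar and the mean level of the median expressed protein-coding gene as a dashed line. Cflar at 264 to 337 TPM and Birc3 at 193 to 225 TPM stand highest, and Fas, Ripk3 and Fadd lie under the dashed line.

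Fas, the receptor for Fas ligand (ENSMUSG00000024778.13, chr19:34290666-34327772, plus strand), was at 10.5, 6.81 and 5.89 TPM in replicates 1, 2 and 3, a mean of 7.73 ± 2.43 (SD, n = 3), from 151, 123 and 114 expected counts. Replicate 1 was the high library and the others lay close together. Its log2 CPM (counts scaled to library size, not to gene length) had an SD of 0.63 over the 3 libraries, against a median of 0.25 over protein-coding genes, and 0.034 without replicate 1. The Fas level depended on the quantification: read-based values, made from the reads without the alignment step, were 23.2, 18.0 and 14.0 TPM. These were above the alignment-based value in every library. On them Fas was 0.49 ± 0.53 (SD, n = 3) log2 units above the median expressed gene, and on the alignment-based values -0.66 ± 0.63. The full-length coding isoform Fas-201, of 327 codons, held 80.5% of the alignment-based TPM of the gene and 17.9% of the read-based TPM.

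Fadd, which links the receptor to caspase-8 (ENSMUSG00000031077.7, chr7:144577318-144582463, minus strand), was the lowest of the 10 genes at 1.09, 1.38 and 1.16 TPM, with 50, 78.1 and 73.0 expected counts. The 3 libraries lay close together, near the lower limit for an expressed gene: 0.216% of expressed protein-coding genes were lower. It has 1 annotated isoform of 205 codons, and the read-based values of 1.16, 1.38 and 1.15 TPM were near the alignment-based ones. The antisense gene Faddos shares 239 exonic bases with it and was at 0.54, 1.52 and 0.94 TPM. The strand setting of the counting is not given in the sources used here; reads in those bases may belong to either gene. Within libraries Fas exceeded Fadd by 3.15, 2.22 and 2.25 log2 units, a mean of 2.54 ± 0.53 (SD, n = 3) or 5.82-fold. The mean log2 difference was 3.77 by read-based values, 1.95 with a pseudocount of 1 and 0.95 in CPM. The protein-coding genes whose levels over the 3 libraries were nearest to those of Fadd were AC168977.1, D930048N14Rik and Cdk5r1, with root mean square log2 differences of 0.043, 0.065 and 0.066.

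Casp8, the initiator caspase (ENSMUSG00000026029.14, chr1:58795374-58847503, plus strand), was at 23.8, 26.7 and 23.3 TPM, a mean of 24.6 ± 1.87 (SD, n = 3) and 2.06 times the median expressed gene. No library stood apart. Its 4 annotated isoforms are all coding. Casp8-201 and Casp8-202, which both encode 480 codons, held 44.8% and 37.1% of its TPM, and Casp8-203 with 500 codons 16.6%. The read-based shares of Casp8-201 and Casp8-204, which has 500 codons, were 20.2% and 31.1%, so the split between the isoforms depended on the quantification. Gm37760, an unverified annotation inside a Casp8 intron on the same strand with no shared exonic base, was at 10.5, 21.4 and 18.6 TPM.

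Cflar, the caspase-8 regulator (ENSMUSG00000026031.15, chr1:58711508-58758884, plus strand), was the highest of the 10 genes by alignment-based values, at 264, 337 and 284 TPM, a mean of 295 ± 37.6 (SD, n = 3). In TPM replicate 2 was highest and replicate 1 lowest, but in log2 CPM replicate 1 was 0.35 above the mean of replicates 2 and 3. The mean was 24.5 times the median expressed gene and above 99.0% of expressed protein-coding genes. The genes nearest to it in level over the 3 libraries were Rrbp1, Cp and Srsf11, with root mean square log2 differences of 0.016, 0.073 and 0.079. Cflar and Casp8 lie 36489 bases apart on the same strand, with 1 gene between them, the processed pseudogene Gm3841. Within libraries Cflar exceeded Casp8 by 3.47, 3.65 and 3.60 log2 units, a mean of 3.57 ± 0.095 (SD, n = 3) or 11.9-fold. It was 2.93 over coding isoforms alone and 4.52 in CPM.

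Long and short c-FLIP are made from different Cflar transcripts. The long coding isoforms, of 481 to 484 codons, summed to 140, 128 and 121 TPM in replicates 1, 2 and 3. The 215-codon Cflar-204, the form that ends in the intron sequence printed above, was at 38.0, 75.3 and 62.1 TPM. There were thus 0.27, 0.59 and 0.51 short transcripts per long one, with replicate 1 the low library, and read-based values gave 0.25, 0.49 and 0.43. Of the 2010 bases of Cflar-204, 63.0% lie inside introns of Cflar-205. Cflar-213, a retained-intron isoform wholly inside the first intron of Cflar-205, was at 25.8, 45.7 and 34.5 TPM, and Cflar-207, also wholly intronic against Cflar-205, was at 20.3, 22.5 and 15.3 TPM. Reads of unspliced precursor that is still on chromatin and reads of an isoform that includes intron bases cannot be told apart in these tables, here and in the other genes.

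**Figure D2:**
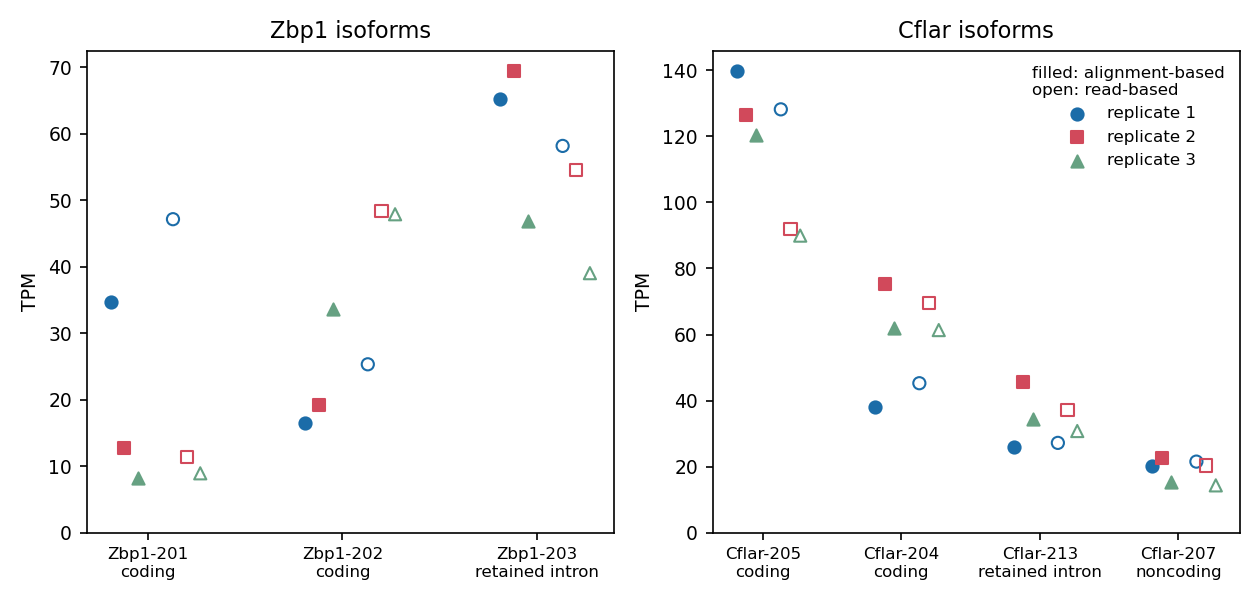
TPM of the Zbp1 isoforms and of 4 Cflar isoforms in each library, filled for alignment-based and open for read-based values. Replicate 1 has more of the spliced Zbp1-201 and Cflar-205 and less of Zbp1-202 and Cflar-204 than the other libraries, by either quantification.

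Birc2 and Birc3 encode cIAP1 and cIAP2, paralogous ligases that lie 11634 bases apart on chromosome 9, both on the minus strand with no annotated gene between them. Birc3 (ENSMUSG00000032000.17, chr9:7848699-7873186) was at 216, 225 and 193 TPM, a mean of 211 ± 16.8 (SD, n = 3) and 17.6 times the median expressed gene. Birc2 (ENSMUSG00000057367.12, chr9:7818227-7837064) was at 35.8, 64.3 and 56.7 TPM, a mean of 52.3 ± 14.8 (SD, n = 3), with replicate 1 the low library. Every Birc3 value was above every Birc2 value. Within libraries Birc3 exceeded Birc2 by 2.59, 1.81 and 1.76 log2 units, a mean of 2.05 ± 0.47 (SD, n = 3) or 4.15-fold. The size depended on the measure: the mean log2 difference was 2.75 by read-based values, 1.11 over coding isoforms alone and 0.84 in CPM, which does not divide by length.

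Much of the Birc3 level was on short noncoding isoforms. The 360-base Birc3-206 was at 83.2, 67.9 and 63.6 TPM, and the 355-base Birc3-205 at 30.8, 53.0 and 51.6 TPM. Against Birc3-201, which encodes the full 602 codons, 90.3% and 78.9% of their bases are intronic. Birc3-201 was at 47.8, 51.5 and 39.5 TPM, so Birc3-206 exceeded it in every library. Isoforms not typed as protein-coding held 62.3% ± 4.9 (SD, n = 3) of the Birc3 TPM but 10.4% of its expected counts, because TPM divides by length and these isoforms are short. They include the nonsense-mediated decay isoform Birc3-207, of 137 codons, with 6.90% of the TPM. Over coding isoforms alone Birc3 was 3.47 ± 0.14 (SD, n = 3) log2 units above the median expressed gene, against 4.14 ± 0.25 with every isoform. The reference differs between these values, since the median gene was also taken over coding isoforms. Casp8, whose isoforms are all coding, moved from 1.04 to 1.78 by that change. The fall in Birc3 itself was therefore larger than these values show. In Birc2, the coding isoforms Birc2-204 and Birc2-202, both of 612 codons, held 37.0% and 35.3% of the TPM, and Birc2-203, a retained-intron isoform with 94.4% of its bases in the first intron of Birc2-204, held 22.8%.

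Ripk1, the kinase and scaffold at the branch between survival and death (ENSMUSG00000021408.15, chr13:34002363-34037147, plus strand), was at 42.1, 35.3 and 32.7 TPM, a mean of 36.7 ± 4.84 (SD, n = 3) and 3.06 times the median expressed gene. Replicate 1 was highest. Ripk1-201, of 656 codons, was at 15.1, 15.6 and 15.0 TPM. The retained-intron isoform Ripk1-202 was at 9.87, 11.1 and 9.31 TPM, while the other one, Ripk1-205, was at 13.4, 5.21 and 5.56 TPM and was high in replicate 1. Together they held 49.0% ± 5.4 (SD, n = 3) of the Ripk1 TPM. Serpinb6a on the opposite strand shares 241 exonic bases with Ripk1 and was at 23.0, 31.4 and 23.5 TPM, and the pseudogene Gm17084 on the same strand shares 511 bases and was at 4.28, 2.84 and 1.37 TPM, so the Ripk1 value is uncertain by the reads in those bases.

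Zbp1, the Z-nucleic acid sensor (ENSMUSG00000027514.14, chr2:173206612-173218923, minus strand), was the third highest of the 10 genes at 116, 101 and 88.7 TPM, a mean of 102 ± 13.8 (SD, n = 3) and 8.50 times the median expressed gene. Its log2 CPM varied by an SD of 0.46, and with Fas it was 1 of 2 members above the protein-coding median of 0.25. Without replicate 1 its SD was 0.19 against a median of 0.12, and 3, 3 and 4 members were above the median without replicates 1, 2 and 3. The retained-intron isoform Zbp1-203, 3325 bases long, was the highest in every library by alignment-based values, at 65.2, 69.4 and 46.9 TPM. The full-length coding isoform Zbp1-201, of 411 codons, was at 34.6, 12.8 and 8.17 TPM and was high in replicate 1. Zbp1-202, a 187-codon coding isoform with 22.7% of its bases in introns of Zbp1-201, was at 16.5, 19.3 and 33.6 TPM. For each Zbp1-201 transcript there were 1.88, 5.43 and 5.74 Zbp1-203 transcripts, and 1.23, 4.77 and 4.37 by read-based values.

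Zbp1-203 keeps intron 4 of the 7 introns of Zbp1-201 in full, 1365 bases at chr2:173210734-173212098. It was the only one of the retained-intron isoforms of the 10 genes that read through a whole intron of a coding isoform of its gene; the others begin or end inside one. Its share of the Zbp1 TPM was 59.1% ± 8.2 (SD, n = 3), 44.3% by read-based values and 80.9% of expected counts. Over the 5967 expressed protein-coding genes with a retained-intron isoform, the median share on such isoforms was 46.8%, or 44.9% by read-based values. The Zbp1 share thus lay near the background by one quantification and above it by the other.

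Ripk3, the kinase that phosphorylates MLKL (ENSMUSG00000022221.14, chr14:55784995-55788865, minus strand), was the second lowest of the 10 genes at 6.92, 5.67 and 4.50 TPM, a mean of 5.70 ± 1.21 (SD, n = 3), from 55, 116 and 98 expected counts. The level was 0.477 times the median expressed gene, and read-based values were 4.19, 4.93 and 3.35 TPM. The interval that the quantifier deposited for replicate 1 ran from 5.40 to 11.5 TPM. That of replicate 3 ran from 4.53 to 9.77 TPM, just above its value of 4.50 TPM, so the intervals need not hold the printed values. The mismatch was not limited to low counts: Cflar and Zbp1 lay above their intervals in all 3 libraries. In replicate 1 Cflar was at 264 TPM against 242 to 260 TPM, and Zbp1 at 116 TPM against 105 to 114 TPM. Low counts left the isoforms unsettled: Ripk3-201, of 486 codons, was at 0, 2.13 and 1.12 TPM, and Ripk3-202, of 422 codons, was at 1.57, 2.22 and 2.08 TPM. Ripk3-202 was thus detected at a like level in every library, and Ripk3-201 was listed at 0 in replicate 1.

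Mlkl, the pseudokinase that executes necroptosis (ENSMUSG00000012519.14, chr8:111311797-111338177, minus strand), was at 32.7, 47.9 and 52.4 TPM, a mean of 44.3 ± 10.3 (SD, n = 3) and 3.64 times the median expressed gene. Replicate 1 was low by alignment-based values, but read-based values of 64.4, 62.9 and 66.7 TPM did not set it apart. Mlkl-202, of 464 codons, was at 23.6, 27.2 and 23.9 TPM, and Mlkl-201, of 472 codons, at 3.28, 2.20 and 2.75 TPM. The ratio of these isoforms was 7.19, 12.4 and 8.68 by alignment-based values and 1.30, 1.37 and 1.39 by read-based values, so their proportion was not settled by these data. The Mlkl isoform with the widest spread by alignment-based values was the 176-codon Mlkl-204, at 3.46, 13.5 and 22.5 TPM, and read-based at 20.9, 14.6 and 19.9 TPM.

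Measured against Ripk3, its partners were all higher. Ripk1 exceeded it by 2.59, 2.62 and 2.84 log2 units within libraries, a mean of 2.68 ± 0.14 (SD, n = 3) or 6.41-fold. The difference for Mlkl was 2.23, 3.06 and 3.51, a mean of 2.93 ± 0.65 (SD, n = 3) or 7.63-fold. For Zbp1 it was 4.05, 4.14 and 4.27, a mean of 4.15 ± 0.11 (SD, n = 3) or 17.8-fold. By read-based values the mean differences from Ripk3 were 3.48 for Ripk1, 3.94 for Mlkl and 4.74 for Zbp1, and in CPM they were 3.88, 3.23 and 5.29. Over coding isoforms alone that of Zbp1 was 3.48. The sign of each of the 6 pair differences was shared by 3 of 3 libraries. The two-sided exact sign-flip test gave p = 0.25 for each and 0.25 after Benjamini-Hochberg adjustment over the 6 pairs, the smallest value that 3 libraries allow, so none can pass 0.05 in this design.

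**Figure D3:**
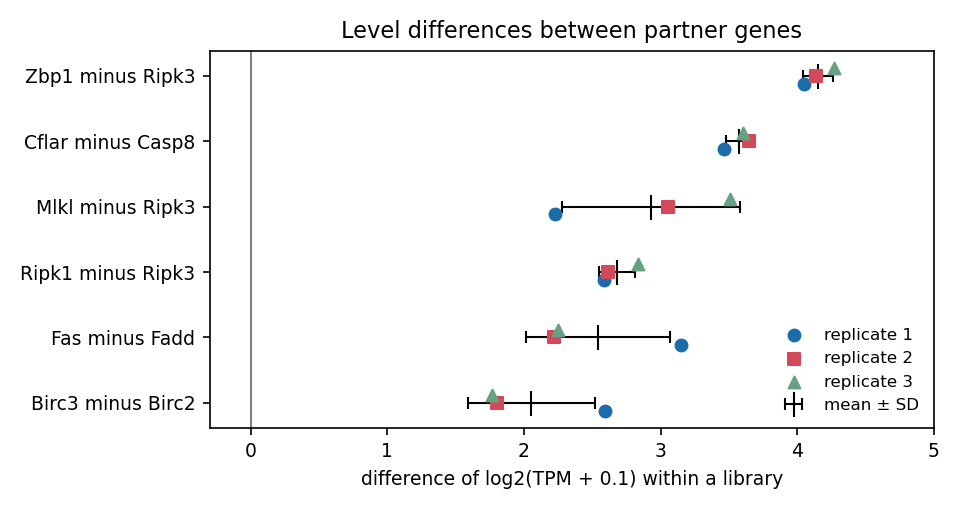
Difference of log2(TPM + 0.1) between the genes of each pair within a library, 1 point per library, with mean ± SD over 3 libraries. All points lie right of 0, and the pairs Mlkl minus Ripk3, Fas minus Fadd and Birc3 minus Birc2 spread most, with replicate 1 at one end.

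In the order of levels, 6 of the 9 pairs of neighbours had ranges that did not overlap. Birc2 and Mlkl overlapped, as did Mlkl and Ripk1, whose order changed in replicate 1, and Fas and Ripk3, by alignment-based values. By read-based values Cflar, at 356, 398 and 373 TPM, and Birc3, at 303, 437 and 413 TPM, overlapped, with a mean log2 difference of -0.018, so which of them was highest was not settled. Mlkl and Ripk1, and Fas and Ripk3, did not overlap by read-based values, and Birc2 and Mlkl did. Read-based values exceeded alignment-based ones in every library for 8 of the 10 genes, against 71% of expressed protein-coding genes. Replicate 1 lay outside the other libraries on the high side for 4 genes and on the low side for 4 in TPM. In CPM it was high for 8 and low for 2. The share of all genes for which it did so is not given here, so these counts do not set the 10 genes apart.

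Isoforms that the annotation does not type as protein-coding, called noncoding here, include nonsense-mediated decay isoforms that have codons, as in Birc3 and Fas. They held a median of 53.0% of the TPM over 7749 expressed protein-coding genes that have isoforms of both kinds. Among the 8 members of that kind, the share was 62.3% ± 4.9 in Birc3, 59.1% ± 8.2 in Zbp1, 49.0% ± 5.4 in Ripk1, 35.9% ± 3.6 in Cflar, 34.8% ± 15.4 in Ripk3, 27.7% ± 4.0 in Birc2, 12.0% ± 8.3 in Fas and 7.98% ± 2.2 in Mlkl (SD, n = 3). Birc3 and Zbp1, 2 of these 8 genes, had a noncoding isoform as their highest by alignment-based values, against 46.6% of such genes. By read-based values Fas and Ripk1 did as well, 4 of 8 against 60.6% of such genes. By read-based values the background median was 59.8%, and the shares were 75.6% in Birc3, 60.5% in Fas, 53.1% in Ripk1, 45.2% in Birc2, 44.3% in Zbp1, 42.9% in Cflar, 19.0% in Mlkl and 17.6% in Ripk3. As shares of expected counts they were 80.9% in Zbp1, 25.7% in Ripk1, 15.6% in Cflar, 11.2% in Birc2, 10.4% in Birc3 and in Ripk3, 10.3% in Fas and 2.88% in Mlkl. The Fas share was 7.29% without replicate 1. The order of the genes by noncoding share thus depended on the measure.

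**Figure D4:**
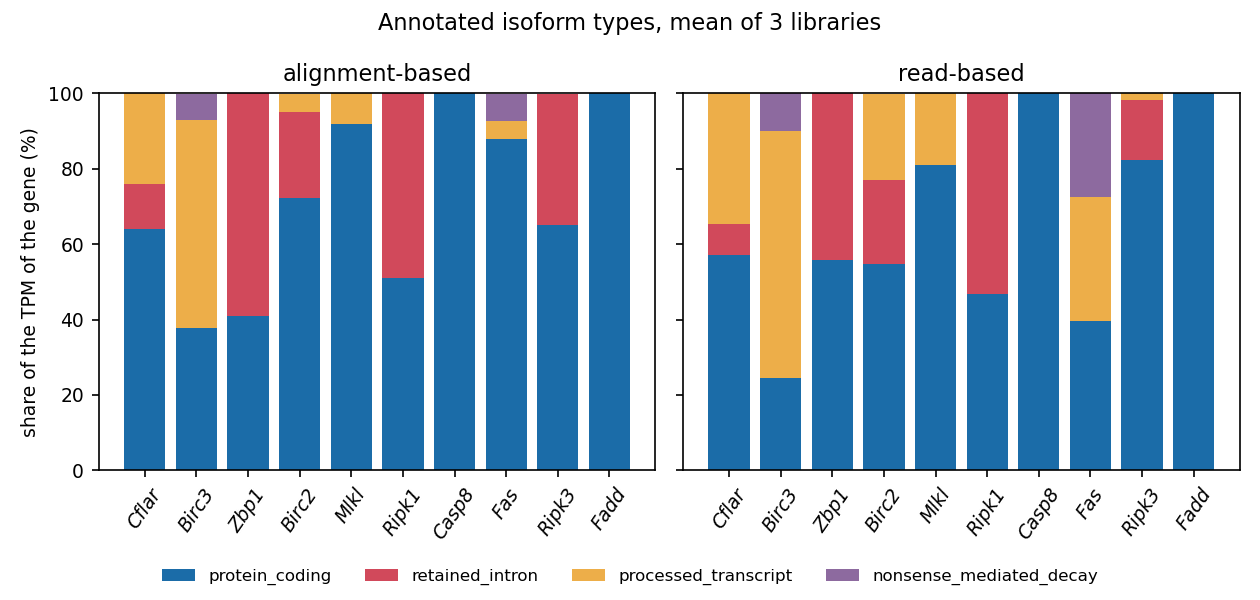
Mean share of the TPM of each gene on each annotated isoform type over 3 libraries, alignment-based at left and read-based at right. Noncoding types hold most of Birc3 in both panels, all of the noncoding share of Zbp1 and Ripk1 is retained intron, and the Fas column differs most between panels.

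Of 78 other genes of the pathways, chosen by role, 74 were expressed, against 42% of annotated protein-coding genes. Above the median expressed gene in every library lay 55, against 18.5% of annotated protein-coding genes. Among the death ligands, 3 of 5 were expressed: Tnf was at 439.6 ± 23.8 TPM (SD, n = 3), whereas Fasl, the ligand of Fas, was listed at 0 in all libraries. Of 11 receptors of the death, TNF, Toll-like and interferon families 9 were expressed. Tnfrsf1b (TNF receptor 2) was highest at 183 TPM, and the death receptor gene Tnfrsf25, not among the 9, was lowest at 0.013 TPM. The death receptor gene Tnfrsf10b, also not among the 9, was at a mean of 0.307 TPM but at 6.91 TPM by read-based values. All 6 adaptors were expressed, and Traf1 was highest at 291 TPM and Tradd lowest at 11.5 TPM. The ubiquitin regulators were expressed in 13 of 13 cases, from Tnfaip3, which encodes the ubiquitin-editing enzyme A20, at 203 TPM to Spata2, which bridges the deubiquitinase CYLD to its complex, at 7.83 TPM.

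All 12 genes of the group of kinases that restrain RIPK1 and their partner subunits were expressed, with Ikbke, the kinase IKK-epsilon, at 1840.1 TPM and Tab1, a TAK1 partner, at 5.65 TPM. Among caspases and the mitochondrial arm, 11 of 11 were expressed, from the survival factor gene Mcl1 at 134 TPM to Casp6 at 3.33 TPM. The modulators of necroptosis were expressed in 11 of 11 cases, with Adar, whose product edits the double-stranded RNA that ZBP1 can sense, at 147 TPM and the phosphatase gene Pgam5 at 5.37 TPM. All 9 genes of interferon control were expressed and above the median expressed gene, from Stat2 at 554 TPM to Irf9 at 42.9 TPM.

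**Figure D5:**
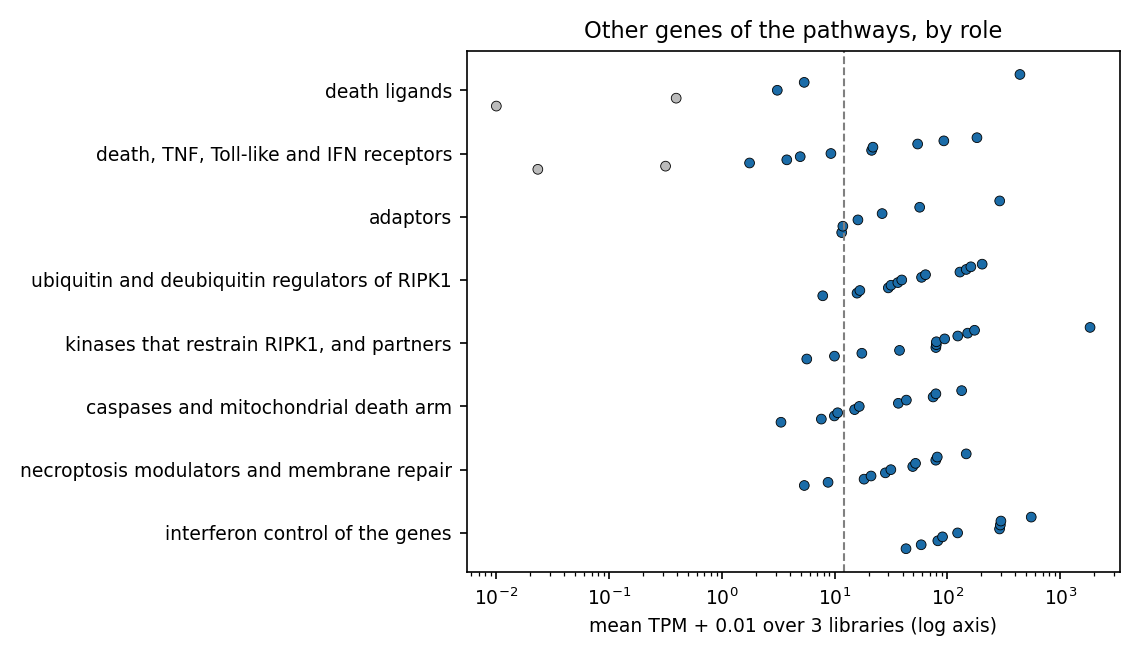
Mean TPM + 0.01 over 3 libraries, on a log axis, of 78 other genes of the pathways by role, blue where at least 1 TPM in every library and grey otherwise. The dashed line is the median expressed protein-coding gene; all 9 genes of interferon control lie right of it, and 1 of 5 death ligands does.

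Promoter windows, 250 bases before to 50 after an annotated start, were matched by symbol in RefSeq (GRCm38.p6) for 9 of the 10 genes, 11 windows in all. Zbp1 has no entry. Both strands were searched for GAAANNGAAA, the core of the interferon-stimulated response element, which Cflar and Ripk1 hold, 2 of 11 windows, as do 3.44% of 32851 windows. The gamma-activated site core TTCNNNGAA, which reads the same on both strands, was in the windows of Fas and Ripk1, 2 of 11 against 8.3%. The kappaB consensus was in 0 of 11 windows against 4.51%. Birc2 windows held 34 and 21 CpG dinucleotides, those of Ripk1 22 and 36, and that of Fadd 22, against a median of 7 over all windows, while Birc3 and Mlkl had 7 each and Casp8 had 5. The windows of Fas, Cflar and Ripk3 held 14, 12 and 10. The Casp8 window, chr1:58802252-58802551, lies inside the annotated gene. It does not cover the first base of the gene at 58795374, where Casp8-201 starts, so that start was not searched. Other isoform starts also lie outside the windows, such as those of Cflar-204 and Birc2-202, 3.8% and 9.6% of the way into their genes.

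The windows with the interferon motif are printed with the matches in capitals. That of Cflar is chr1:58711241-58711540, plus strand, and its match is on the minus strand at base 257 of the window. This is just after the RefSeq start, and just before the start of the gene in the annotation used for the levels, 58711508. The second Ripk1 window is chr13:34002624-34002923, plus strand, where the second of 2 gamma-activated site cores, at base 240, overlaps the interferon motif at base 246.
Cflar: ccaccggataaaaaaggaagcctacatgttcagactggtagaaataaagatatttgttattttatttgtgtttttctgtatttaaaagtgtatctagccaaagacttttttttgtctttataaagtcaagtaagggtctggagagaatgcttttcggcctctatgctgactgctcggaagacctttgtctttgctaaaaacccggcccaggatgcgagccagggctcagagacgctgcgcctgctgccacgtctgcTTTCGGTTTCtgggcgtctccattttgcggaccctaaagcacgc
Ripk1: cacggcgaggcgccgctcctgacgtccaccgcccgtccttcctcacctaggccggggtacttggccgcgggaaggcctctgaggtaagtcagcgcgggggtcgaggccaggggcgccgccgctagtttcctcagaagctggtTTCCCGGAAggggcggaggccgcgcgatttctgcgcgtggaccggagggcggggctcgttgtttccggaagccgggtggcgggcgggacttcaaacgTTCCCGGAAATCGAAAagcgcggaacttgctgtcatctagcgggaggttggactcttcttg
A match describes the letters only; binding at these windows was not analysed here.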

How the data were processed

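Chromatin RNA-seq of 3 libraries from 1 condition was used as deposited. Per the file headers, the authors deposited expected counts and TPM per gene and per transcript in the column layout of RSEM (alignment-based), with interval bounds for TPM (held as a score here), and estimated counts and TPM per transcript in that of kallisto (read-based). Per the deposited notes, GENCODE M21 on build mm10 was used; the programs' versions, settings and strand use were not given in the sources used here. TPM divides by transcript length and sums over all RNA types, so short isoforms gain and abundant noncoding RNA lowers other genes.

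Of 81881 gene rows, 55536 matched the annotation. Read-based gene values are sums over isoforms. A gene counted as expressed at 1 TPM or more in all 3 libraries. Pair differences used log2(TPM + 0.1) within a library and a two-sided exact sign-flip test, adjusted over 6 pairs. SDs of log2 CPM and the biological coefficient of variation used rounded expected counts with edgeR 4.0.16 (R 4.3.3), TMM factors, a prior count of 0.5 and genes of at least 10 summed counts; DESeq2 1.42.0 size factors were an alternative. Level and SD steps were tested on simulated data. Named genes were the members, the highest and lowest gene of each role, the 3 genes nearest in level to the highest and lowest member, and genes overlapping a member; Gm3841 and the isoforms described were named after their values were seen. The intronic share of an isoform counts its bases inside introns of the coding isoform with most codons among those of at least 1 TPM. Members, gene lists and tests were chosen with earlier results of these data known.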

Additional observations from a re-analysis of the deposited data

How the results depend on the processing

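The 6 pair differences kept their sign, though not their size, in every alternative tried (pseudocounts of 0.01 and 1, read-based values, TPM rescaled to protein-coding genes, CPM, coding isoforms only, and leaving out each library). The counts of expressed members, of members above the median expressed gene and of expressed pathway genes stayed within 1.5 times. The log2 distance of the median member from the median expressed gene moved from 1.70 to 1.94 with expression set at 0.5 TPM, 0.86 at 5 TPM, 1.99 with read-based values, 2.09 with TPM rescaled to protein-coding genes, 1.86 with CPM and 1.99 with coding isoforms only, an alternative chosen after seeing the data. Fas reversed against the median expressed gene, to 0.49 by read-based values; the cause was not tested. Rescaling raises every log2 TPM by 1.89, 1.60 and 1.83 in replicates 1, 2 and 3, a mean of 1.77. Within a library it shifts all genes alike. Distances from the median expressed gene then move only through the 1 TPM limit and the pseudocount. With coding isoforms only, the median expressed gene is itself taken over coding isoforms. Of the other values, 31 levels against the median gene, 14 noncoding shares and 8 main isoform shares moved by more than their replicate SD, and 8 SDs moved by over 1.5 times. No paired analysis was possible because there was 1 condition. Counts of 50 to 151 limit Fas, Fadd and Ripk3 and their isoforms.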
